A study of Mus musculus with 10 samples.

Results

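The WNT signalling genes examined here were 48 of the 29268 genes measured in the uterus of HSD17B1TG and WT mice. They are defined by gene name and not by measured values, as the protein-coding genes of the WNT ligand, Frizzled (FZD), SFRP, DKK, R-spondin and LGR4 to LGR6 families, together with *Frzb*, *Wif1*, the co-receptors *Lrp5* and *Lrp6*, and the pathway targets *Axin2*, *Lef1* and *Tcf7*. The data were RNA-seq libraries from 5 HSD17B1TG and 5 WT females of the FVB/N strain at the age of 4 months, 1 library per mouse, with the mice numbered TG1 to TG5 and WT1 to WT5. HSD17B1TG mice are heterozygous for a transgene with the human *HSD17B1* cDNA, an enzyme of estrogen synthesis, which a CMV-enhanced chicken beta actin promoter drives in all tissues. The study describes these females as not cycling. Its histology methods state that WT uteri were taken at random phases of the cycle, and the phase of each sequenced WT mouse is not given in the sources used here.

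WNT ligands are secreted, lipid-modified proteins that bind FZD receptors and the co-receptors LRP5 and LRP6. In the canonical branch the bound receptors stop the breakdown of beta-catenin, which then acts with TCF and LEF factors on target genes such as *Axin2*. SFRP proteins and WIF1 bind the ligands outside the cell, most DKK proteins block the co-receptors, and R-spondins act through LGR receptors to keep FZD receptors at the cell surface. In the mouse uterus WNT genes are known for their part in the patterning of the Müllerian duct, the formation of endometrial glands and the decidual response, with *Wnt7a* made by the epithelium and *Wnt5a* mainly by the stroma.

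Of the 48 genes, 36 had enough counts to be tested. A gene was called when its adjusted p-value in edgeR was under 0.05, its fold change was over 2 and its mean FPKM (fragments per kilobase of transcript and sequencing depth, a level per length) was over 1 in either group. By this rule 1 member rose in HSD17B1TG uterus, the secreted WNT modulator gene *Dkk2*, and 5 members fell, the ligands *Wnt5a* and *Wnt6*, the receptor *Fzd2*, the secreted WNT-binding *Sfrp2* and the transcription factor *Lef1*. Among all 16993 genes tested, 2.16% rose and 2.08% fell, 4.24% in all. The same 6 members had an adjusted p under 0.05 when no fold or level was required, as had 3.34% of all genes upwards and 2.81% downwards, 6.16% together. Of the 36 members 15 were higher and 21 lower, with a median log2 fold change of -0.38, against 0.00 over all genes tested. At an unadjusted p under 0.05 there were 5 higher and 13 lower members, and this level was reached by 26.1% of all genes. When counts were scaled by library size alone, which moved the median of all genes to -0.17, no member rose and 6 fell, with *Dkk3* as the addition.

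**Figure D1:**
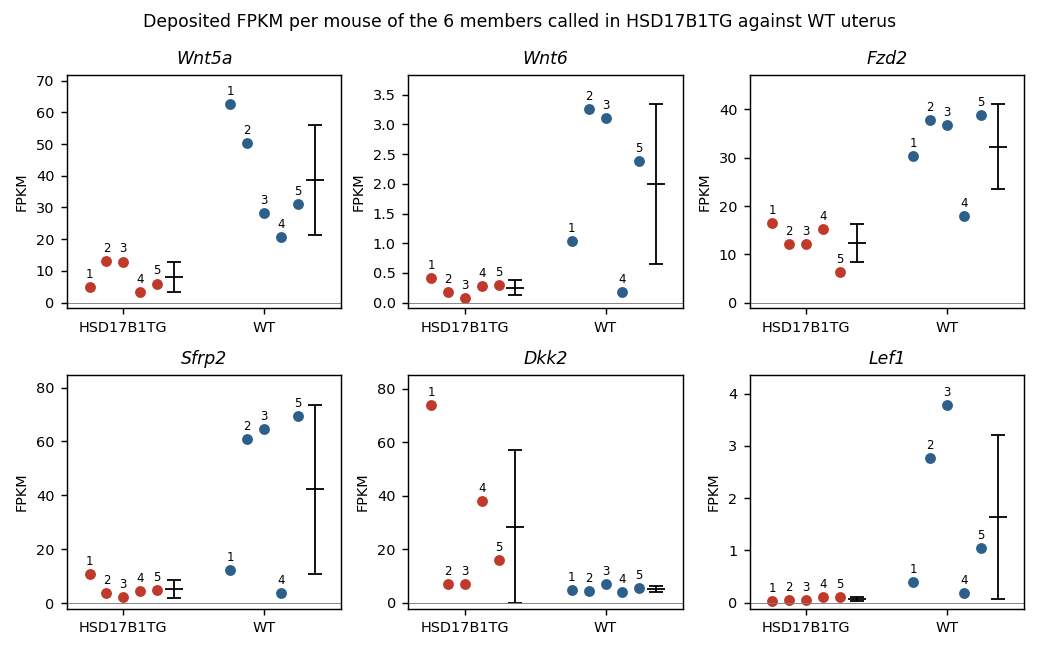
FPKM of the 6 called genes in each uterus, with HSD17B1TG in red and WT in blue and the number of each mouse above its point. Black bars give the mean and SD of 5 mice. *Dkk2* is spread from 7.01 to 74.0 in HSD17B1TG, and WT4 is the lowest WT mouse for each of the 5 lower genes.

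Promoter sequences were looked up for the called members in RefSeq (GRCm38.p6), which had an entry for 33 of the 48 genes. The 250 bases before the start of 3 called genes on the plus strand are printed to show the regions ahead of the gene that rose and of an inhibitor and a ligand gene that fell. Each was searched on both strands for the estrogen response half-site GGTCA, the TCF/LEF core (CTTTGNN, where both N are A or T) and the TATA box TATAAA. Matches of different motifs could share end bases, and capitals mark a match.
Dkk2 (chr3:132085042-132085291): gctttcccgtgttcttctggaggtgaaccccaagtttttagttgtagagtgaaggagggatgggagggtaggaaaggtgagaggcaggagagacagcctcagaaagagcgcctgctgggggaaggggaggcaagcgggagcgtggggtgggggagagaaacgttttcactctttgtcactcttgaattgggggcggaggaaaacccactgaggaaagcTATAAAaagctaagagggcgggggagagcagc
Sfrp2 (chr3:83766071-83766320): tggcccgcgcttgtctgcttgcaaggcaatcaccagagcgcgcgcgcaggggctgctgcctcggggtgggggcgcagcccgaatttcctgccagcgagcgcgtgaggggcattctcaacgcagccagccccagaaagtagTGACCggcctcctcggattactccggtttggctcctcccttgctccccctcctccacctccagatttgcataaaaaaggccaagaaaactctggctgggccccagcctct
Wnt6 (chr1:74771642-74771891): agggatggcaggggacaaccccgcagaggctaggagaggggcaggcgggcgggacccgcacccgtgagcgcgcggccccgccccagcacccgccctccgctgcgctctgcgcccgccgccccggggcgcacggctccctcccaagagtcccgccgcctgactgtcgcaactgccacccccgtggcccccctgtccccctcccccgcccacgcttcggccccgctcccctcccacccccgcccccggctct

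The *Dkk2* window holds a TATA box that begins 32 bases before the start. The *Sfrp2* window holds the half-site on the minus strand, read here as TGACC, beginning 110 bases before the start. No match was found in the *Wnt6* window, of which 79.6% of the bases are G or C. The *Lef1* window, on the plus strand too, held no match and is not printed. Its start differed from that of the annotated gene. *Wnt5a* and *Fzd2* had no entry. The half-site stood in 35.2%, the TCF/LEF core in 14.8% and the TATA box in 12.4% of all 32851 promoter windows of this length. Among the 40 starts of the 33 members with an entry, the shares were 42.5%, 12.5% and 17.5%. A match describes the letters only.

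*Wnt5a*, which signals largely outside the beta-catenin branch, was the most abundant ligand mRNA in WT uterus and fell in HSD17B1TG. The gene (ENSMUSG00000021994) lies on chromosome 14 from 28504750 to 28527448 (GRCm38, plus strand). Its FPKM were 4.89, 13.1, 12.9, 3.35 and 5.996 in TG1 to TG5 and 62.5, 50.4, 28.4, 20.5 and 31.1 in WT1 to WT5. All 5 HSD17B1TG mice were below every WT mouse. The mean was 8.05 ± 4.62 in HSD17B1TG and 38.6 ± 17.3 in WT (SD, n = 5). The log2 fold change was -2.27 ± 0.44 (SE, adjusted p = 0.0246 in edgeR), which is 4.82-fold lower.

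*Wnt6* (ENSMUSG00000033227, chromosome 1, 74771892 to 74785322) is a canonical ligand and was scarce. In TG1 to TG5 its FPKM were 0.416, 0.184, 0.0727, 0.283 and 0.293, from 3 to 17 counts. WT1 to WT5 had 1.04, 3.27, 3.11, 0.177 and 2.38. WT4 lay within the HSD17B1TG range and the other 4 WT mice lay above it, and the log2 fold change was -2.99 ± 0.72 (adjusted p = 0.0402 in edgeR).

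Besides *Wnt5a*, 6 ligands had a median over 1 FPKM, and none of these was called in edgeR with all mice. *Wnt4*, a ligand with a known role in decidualization, had FPKM of 6.96, 15.9, 11.1, 17.1 and 29.97 in HSD17B1TG and 8.43, 20.4, 0.651, 4.83 and 3.66 in WT (log2 fold change 1.09 ± 0.70, adjusted p = 0.354). *Wnt7b*, a close relative of *Wnt7a*, had 1.70, 4.96, 10.5, 10.5 and 16.3 in HSD17B1TG and 4.22, 2.53, 0.0253, 4.93 and 2.29 in WT (1.65 ± 0.84, adjusted p = 0.244). The lowest value was that of WT3, which had 2 counts of *Wnt7b*, and 4 of 5 HSD17B1TG mice were above every WT mouse. *Wnt7a*, the epithelial ligand, had 2.50, 5.27, 17.5, 9.11 and 11.1 in HSD17B1TG and 11.7, 22.1, 1.90, 2.79 and 1.59 in WT (0.17 ± 0.76, adjusted p = 0.909). WT1 and WT2 were thus the high WT mice for both *Wnt4* and *Wnt7a*, and WT3 was low for *Wnt4*, *Wnt7a* and *Wnt7b*.

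*Wnt16* had FPKM of 0.295, 1.52, 3.21, 0.597 and 0.884 in HSD17B1TG and 9.13, 5.64, 4.21, 4.29 and 1.71 in WT. TG3 alone reached into the WT range, and the difference did not pass the test in edgeR (log2 fold change -1.95 ± 0.61, adjusted p = 0.0778), whereas *Wnt16* was called lower in DESeq2 (adjusted p = 0.0123) and limma voom (adjusted p = 0.0444). *Wnt9a* had 5.29, 5.84, 5.75, 4.25 and 2.32 in HSD17B1TG and 6.12, 14.3, 4.84, 7.81 and 15.1 in WT (-1.05 ± 0.36, adjusted p = 0.1003 in edgeR), and it was called lower in DESeq2 (adjusted p = 0.0416) but not in limma voom (adjusted p = 0.109). *Wnt5b*, the paralogue of *Wnt5a*, had 2.47, 2.86, 1.80, 1.54 and 2.15 in HSD17B1TG and 3.05, 7.68, 4.21, 1.22 and 4.42 in WT (-0.93 ± 0.41, adjusted p = 0.183). For both, WT2 and WT5 were the highest mice, and the groups overlapped.

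Of the low ligands that were tested, *Wnt11* reached 17.1 FPKM in WT3 and at most 1.31 in the other 9 mice (log2 fold change -5.02, adjusted p = 0.0581, and without WT3 -2.39, adjusted p = 0.142). *Wnt2* stayed at or below 1.04 FPKM (-2.01, adjusted p = 0.128), and *Wnt2b* at or below 1.95 (-0.07, adjusted p = 0.943). *Wnt3*, *Wnt3a*, *Wnt8b*, *Wnt9b*, *Wnt10a* and *Wnt10b* had too few counts for the test, and none exceeded 0.236 FPKM in any mouse.

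The make-up of the ligand mRNA is given here as shares of the summed ligand FPKM, which were not tested. The stacked plot shows the ligand levels. The 17 ligands summed to 25.7 to 69.6 FPKM in HSD17B1TG and 48.3 to 129 FPKM in WT, with medians of 51.4 and 66.0. *Wnt5a* made up 6.81 to 25.4% of this sum in HSD17B1TG and 39.1 to 58.1% in WT, with no overlap. *Wnt4* took 17.5 to 43.1% in HSD17B1TG and 0.989 to 15.8% in WT, again with no overlap, although its own FPKM overlapped. *Wnt5a* was the most abundant ligand in each of the 5 WT mice, *Wnt4* in TG1, TG2, TG4 and TG5, and *Wnt7a* in TG3. Shares of a sum depend on each other, so that a smaller share of *Wnt5a* by itself raises the others.

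**Figure D2:**
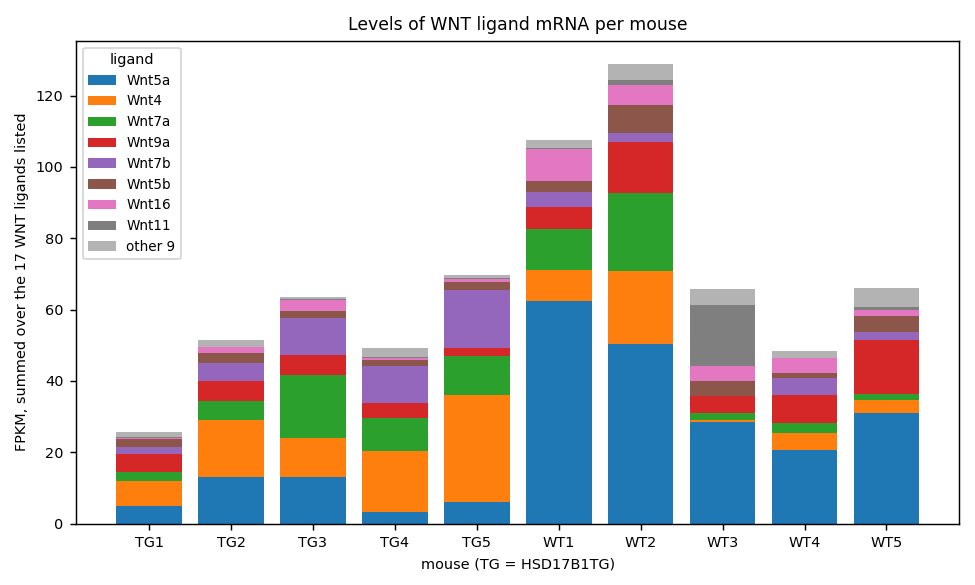
Summed FPKM of the 17 WNT ligands in each uterus, stacked by ligand. The *Wnt5a* part spans 20.5 to 62.5 FPKM in the WT mice and 3.35 to 13.1 in the HSD17B1TG mice, and the *Wnt11* part is largest in WT3, at 17.1 FPKM.

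Among the FZD receptors, which bind the ligands, *Fzd2* fell. The gene (ENSMUSG00000050288) lies on chromosome 11 from 102604396 to 102608058, and no other annotated gene overlaps it. FPKM were 16.4, 12.1, 12.1, 15.2 and 6.30 in TG1 to TG5 and 30.3, 37.7, 36.7, 17.9 and 38.9 in WT1 to WT5. Each HSD17B1TG mouse was below each WT mouse, TG1 and WT4 being the closest. The mean was 12.4 ± 3.92 against 32.3 ± 8.72. The log2 fold change was -1.39 ± 0.28 (adjusted p = 0.0260 in edgeR), which is 2.61-fold lower.

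*Fzd6* was the most abundant FZD by its median, with FPKM of 10.9, 21.1, 16.1, 10.6 and 20.2 in HSD17B1TG and 24.9, 25.8, 21.8, 13.9 and 11.8 in WT (log2 fold change -0.32 ± 0.28, adjusted p = 0.506). No other FZD gene was called. *Fzd7* (0.95, adjusted p = 0.201), *Fzd5* (0.81, 0.137), *Fzd4* (0.38, 0.187) and *Fzd8* (0.36, 0.179) had positive log2 fold changes, and *Fzd1* (-0.86, 0.0913), *Fzd3* (-0.37, 0.445) and *Fzd10* (-1.64, 0.221) negative values. For *Fzd8*, 4 of 5 HSD17B1TG mice were above every WT mouse in a narrow range of 3.46 to 5.87 FPKM. *Fzd9* did not pass the filter and reached 0.298 FPKM at most.

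Neither LRP co-receptor was called. *Lrp5*, the higher by its median, had FPKM of 6.10, 9.73, 14.4, 6.496 and 7.63 in HSD17B1TG and 15.7, 5.49, 4.25, 6.90 and 4.76 in WT, so that WT1 and TG3 stood above the rest (log2 fold change 0.26 ± 0.37, adjusted p = 0.707). *Lrp6* ranged from 4.77 to 9.46 in HSD17B1TG and from 5.75 to 6.94 in WT (0.07 ± 0.18, adjusted p = 0.842).

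In the SFRP family, whose members bind WNT ligands through an FZD-like domain, *Sfrp2* fell. The gene (ENSMUSG00000027996) lies on chromosome 3 from 83766321 to 83774316. Its FPKM were 10.8, 3.92, 2.32, 4.44 and 4.83 in TG1 to TG5 and 12.1, 60.8, 64.5, 3.87 and 69.6 in WT1 to WT5. WT2, WT3 and WT5 were far above all HSD17B1TG mice, WT1 was just above TG1, and WT4 lay within the HSD17B1TG range. Means were 5.27 ± 3.26 and 42.2 ± 31.5, and the log2 fold change was -3.01 ± 0.74 (adjusted p = 0.0427 in edgeR). *Sfrp4*, the family member with the highest median, had 28.3, 20.7, 3.88, 17.7 and 5.69 in HSD17B1TG and 21.5, 20.98, 52.0, 13.1 and 83.1 in WT (-1.33 ± 0.63, adjusted p = 0.211). *Sfrp1* (-0.56, adjusted p = 0.401) and *Frzb* (0.36, 0.632) were not called, and *Sfrp5* did not pass the filter, with 1.38 FPKM in TG1 as its highest value.

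*Dkk2* codes for a secreted ligand of the LRP co-receptors and was the member that rose. It lies on chromosome 3 from 132085292 to 132180304 (ENSMUSG00000028031), with no overlapping annotated gene. FPKM were 74.0, 7.18, 7.015, 38.0 and 15.9 in TG1 to TG5 and 4.61, 4.40, 6.996, 3.87 and 5.69 in WT1 to WT5. The groups did not overlap, but TG2 and TG3 were barely above WT3, and TG1 and TG4 were far above the rest. The mean was 28.4 ± 28.5 in HSD17B1TG and 5.11 ± 1.24 in WT. A 5.54-fold rise by the fit, the log2 fold change was 2.47 ± 0.63 (adjusted p = 0.0449 in edgeR). Without TG1 it was 1.74, and without both TG1 and TG4 it was 0.97 and no longer called (adjusted p = 0.0766).

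*Dkk3*, a divergent family member, had FPKM of 6.85, 8.74, 5.00, 12.3 and 9.87 in HSD17B1TG and 26.2, 44.0, 35.8, 3.78 and 74.3 in WT. WT4 was the lowest of all 10 mice, the other 4 WT mice were above all HSD17B1TG mice, and the log2 fold change of -2.11 ± 0.59 just missed the threshold in edgeR (adjusted p = 0.0558). *Dkk3* was called lower in DESeq2 (adjusted p = 0.00345) and limma voom (adjusted p = 0.0309). *Dkk1* had at most 3 counts in any mouse. *Wif1* reached 3.80 FPKM in WT2 and 0.335 at most in the others, and neither passed the filter.

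No R-spondin and no LGR receptor was called in edgeR with all mice. *Rspo1* had the highest median of its family, with FPKM of 43.0, 23.1, 13.8, 33.3 and 11.1 in HSD17B1TG and 22.5, 18.0, 13.1, 23.3 and 35.1 in WT (log2 fold change 0.15 ± 0.38, adjusted p = 0.840). *Rspo3* had 42.2 in TG1 and 37.8 in TG4, the same mice that were high in *Dkk2*, and 5.42 to 15.9 in the other 8 mice (1.14 ± 0.59, adjusted p = 0.246). *Rspo2* and *Rspo4* did not pass the filter, at 0.279 FPKM or less.

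*Lgr4*, an R-spondin receptor, had FPKM of 8.32, 12.6, 8.35, 9.13 and 15.5 in HSD17B1TG and 3.97, 4.52, 8.67, 6.62 and 5.29 in WT. WT3 lay just within the HSD17B1TG range and the other WT mice below it (log2 fold change 0.89 ± 0.26, adjusted p = 0.0618). It was called up in limma voom (adjusted p = 0.0127), without both WT3 and WT4 (0.0294) and without both TG1 and TG4 (0.0473). *Lgr5*, known as a stem cell marker of several epithelia, was at 0.0829 FPKM or less in HSD17B1TG and reached 2.34 in WT2, with no count in TG4 and WT4 (-4.07 ± 1.28, adjusted p = 0.0773). *Lgr6* had the widest range of the family, from 1.09 to 30.8 in HSD17B1TG and from 0.0272 to 26.3 in WT, highest in TG1 and WT4 (0.53 ± 1.24, adjusted p = 0.827).

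Of the transcriptional readouts, *Lef1* fell and *Axin2* and *Tcf7* were not called. *Lef1* (ENSMUSG00000027985, chromosome 3, 131110471 to 131224356) codes for a DNA-binding partner of beta-catenin and is itself a WNT target. FPKM were 0.0366, 0.0589, 0.0605, 0.106 and 0.102 in TG1 to TG5, from 6 to 15 counts, and 0.389, 2.77, 3.79, 0.193 and 1.06 in WT1 to WT5. The groups did not overlap, and WT2 and WT3 were the highest mice. The log2 fold change was -4.50 ± 0.82 (adjusted p = 0.0224 in edgeR). *Axin2*, the negative feedback target of beta-catenin, had 11.9, 11.8, 9.67, 6.24 and 4.63 in HSD17B1TG and 18.6, 15.8, 4.81, 14.9 and 10.8 in WT, with WT3 at the low end (-0.56 ± 0.36, adjusted p = 0.356). *Tcf7* ranged from 3.82 to 10.5 in HSD17B1TG and from 5.28 to 20.7 in WT (-0.39 ± 0.37, adjusted p = 0.550).

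**Figure D3:**
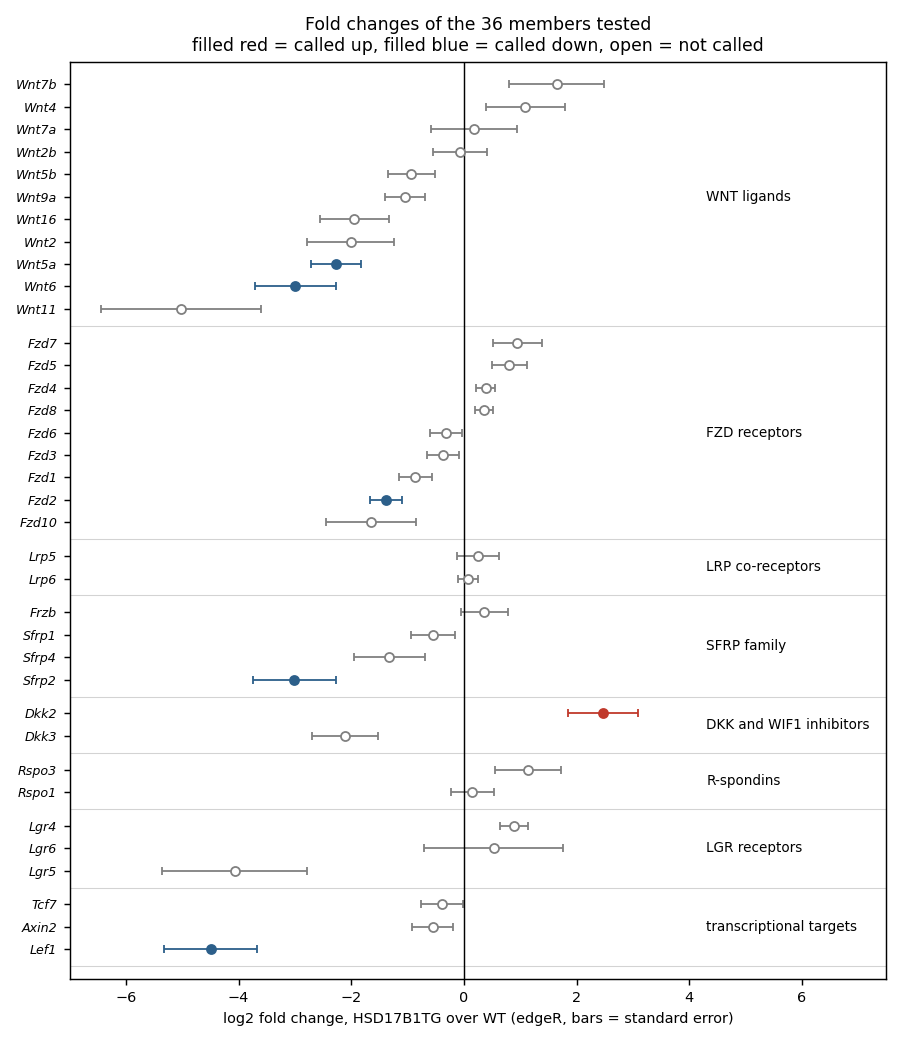
Log2 fold change of HSD17B1TG over WT for the 36 tested genes by role, with the standard error of the edgeR fit as a bar. Filled points are the 6 called genes, of which *Dkk2* alone lies to the right of 0.

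Without overlap between the groups, 1 member was above (*Dkk2*) and 3 were below (*Wnt5a*, *Fzd2* and *Lef1*), against 4.04% and 2.65% of all genes tested (6.69% in either direction). WT4 was the WT mouse closest to the HSD17B1TG mice for each of the 5 members that fell, and it was the lowest WT mouse for 14 of the 36 members. The spread between mice was large in both groups, with a median SD of log2 CPM of 0.705 in HSD17B1TG and 0.736 in WT, and it was wider in WT for 22 members and in HSD17B1TG for 14.

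**Figure D4:**
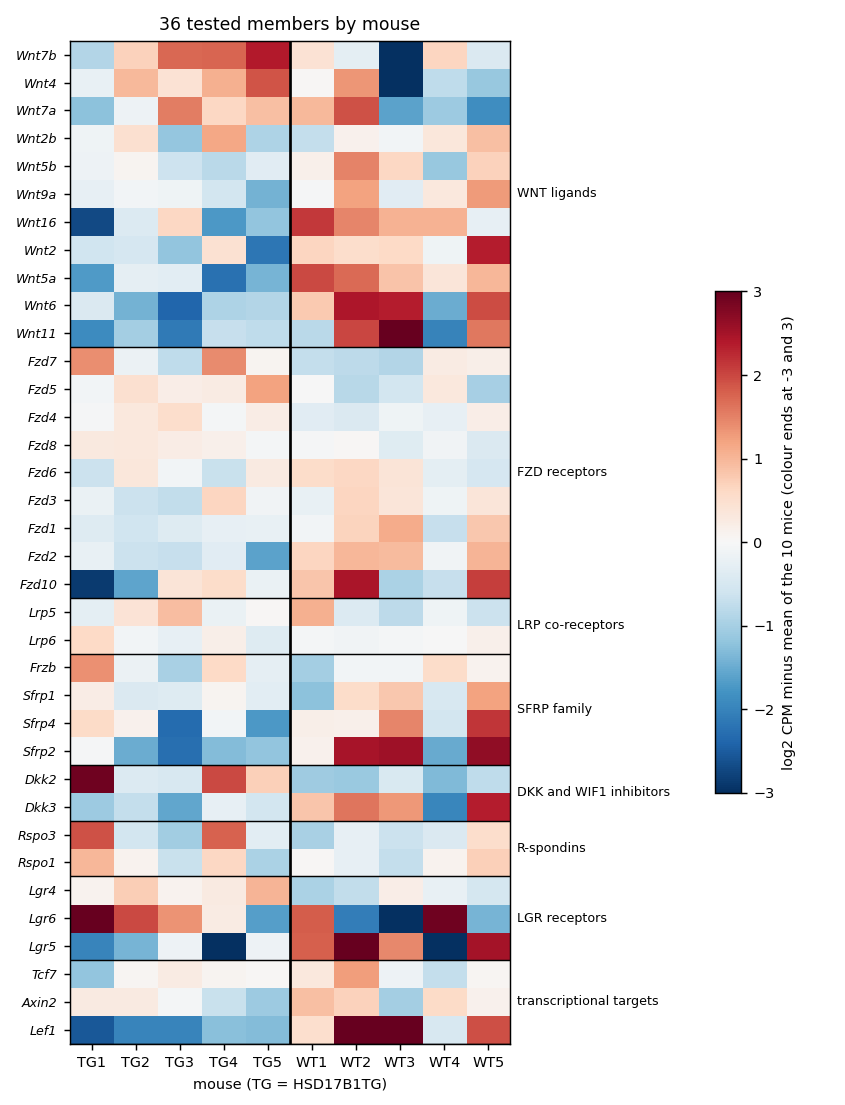
Log2 CPM of the 36 tested genes in each mouse relative to their mean over the 10 mice, with red above and blue below. Most HSD17B1TG columns are blue at *Wnt5a*, *Wnt6*, *Sfrp2* and *Lef1*, and WT4 is blue at *Wnt6*, *Sfrp2* and *Lef1* as well.

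The calls depended on which mice were included. When each mouse was left out in turn, *Lef1* kept an adjusted p under 0.05 in 5 of 10 fits (0.00421 to 0.0609), *Wnt5a* in 4 (0.00934 to 0.0650), *Fzd2* in 3 (0.00632 to 0.0703), *Dkk2* in 3 (0.0256 to 0.109), *Sfrp2* in 2 (0.00738 to 0.1001) and *Wnt6* in 2 (0.00615 to 0.0965). All 6 passed without TG1 and without WT4. Without WT4 the members that fell were 9, with *Dkk3*, *Fzd1*, *Wnt11* and *Wnt5b* as additions. Without TG4, TG5, WT2 or WT5 none was called, without TG2 only *Wnt5a*, and without WT1 or WT3 only *Lef1*. Without TG3 *Wnt16* was called in addition to *Wnt5a*, *Fzd2*, *Lef1* and *Dkk2*. Over all genes the same step moved the calls from 38 up and 27 down without TG5 to 888 up and 666 down without WT4.

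Beyond the members, 57 other genes of the pathway were listed by role, of which 55 were tested. None rose and 4 fell (7.3% of the 55), where 2.16% of all genes tested rose and 2.08% fell. Of the 55 genes 23 were higher and 32 lower. Their median log2 fold change was -0.22, against 0.00 over all genes tested. *Apcdd1*, a membrane inhibitor of WNT signalling, had FPKM of 10.2, 8.15, 9.86, 7.18 and 7.53 in HSD17B1TG and 27.2, 76.7, 37.8, 8.87 and 22.3 in WT (-2.02 ± 0.46, adjusted p = 0.0348 in edgeR). *Znrf3*, the ubiquitin ligase that removes FZD receptors, was between 1.17 and 1.56 in HSD17B1TG and between 1.64 and 4.41 in WT, with no overlap (-1.03 ± 0.25, adjusted p = 0.0414). The target genes *Cd44* (-1.11, adjusted p = 0.0414) and *Myc* (-1.25, adjusted p = 0.0498) also fell, and WT4 was within the HSD17B1TG range for both. With RLE size factors in edgeR *Myc* was not called and the other 3 were.

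None of the 15 genes of the cytoplasmic relay and destruction complex and none of the 12 nuclear partners was called in edgeR with all mice. The nuclear partner *Bcl9* was called higher in DESeq2 and limma voom, and the nuclear partner *Pygo1* lower in limma voom. The scaffold gene *Amer1* had an adjusted p of 0.0427 with a log2 fold change of -0.74, under the fold required. *Ctnnb1*, which codes for beta-catenin, had a mean of 142 ± 20.3 FPKM in HSD17B1TG and 108 ± 23.5 in WT (0.39 ± 0.18, adjusted p = 0.198). The ligand carrier gene *Wls* had 25.8 ± 5.51 and 24.8 ± 3.71 (0.05 ± 0.17, adjusted p = 0.879). These p-values weigh the difference between groups against the spread between 5 mice per group and do not show that the levels were equal. Without WT4 the pathway genes that fell were 8 and *Bcl9* rose, without TG1 6 fell and *Bcl9* rose, without both TG1 and TG4 none of the 4 named genes was called, without TG3 3 fell, and without TG2, TG4, TG5, WT1, WT2, WT3 or WT5 none was called.

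Among the 56 cell type markers tested, 5 stromal genes were called lower and 1 gene of the other lists was called, 10.7% together. Of all genes tested 2.16% rose and 2.08% fell, 4.24% in all. In whole tissue, fewer cells of a type and less RNA per cell cannot be told apart. Of 10 stromal markers 5 fell (*Pdgfra*, *Hand2*, *Hoxa10*, *Hoxa11* and *Col3a1*) and 9 were lower, and their summed FPKM was 584 to 2265 in HSD17B1TG and 1960 to 2537 in WT, whereas *Lum* (0.51, adjusted p = 0.518) and *Dcn* (-0.10, adjusted p = 0.915) were not called. *Pdgfra* had 6.61 to 17.4 FPKM in HSD17B1TG and 25.3 to 66.8 in WT (-1.99 ± 0.36, adjusted p = 0.0219 in edgeR). Per *Pdgfra*, *Wnt5a* was 0.246 to 1.96 in HSD17B1TG and 0.425 to 1.98 in WT, *Fzd2* 0.819 to 1.83 and 0.549 to 1.17, and *Sfrp2* 0.327 to 0.629 and 0.153 to 1.89. The groups overlapped in these 3 ratios, as *Sfrp2* already did in FPKM. *Lef1* per *Pdgfra* was 0.0021 to 0.0133 and 0.00764 to 0.0860, with 2 HSD17B1TG mice below all WT mice. *Dkk2* per *Pdgfra* was 0.821 to 4.24 in HSD17B1TG and 0.0972 to 0.153 in WT, but 63.9% of all genes tested were above WT in all 5 mice per *Pdgfra*, 59.5% per *Hand2* and 42.3% per *Col1a1*, each of which was lower in all 5 HSD17B1TG mice than in any WT mouse. With *Hand2* or *Col1a1* as the reference, *Wnt5a*, *Fzd2*, *Sfrp2* and *Lef1* overlapped between the groups and *Dkk2* was above WT in 5 of 5 mice. With the epithelial marker *Epcam* as the reference, *Wnt5a* and *Lef1* were below all WT mice in 5 of 5, *Fzd2* in 4 and *Sfrp2* in 3 HSD17B1TG mice, and *Dkk2* was above in 2, where 1.76% of all genes tested were below and 0.918% above in 5 of 5. These ratios were chosen after the values were seen and were not tested.

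All 8 smooth muscle markers were higher in HSD17B1TG and none was called. They summed to 7350 in TG1 and 3086 in TG4, the 2 mice with the most *Dkk2* and *Rspo3*, to 867 to 2504 in the other HSD17B1TG mice, and to 407 to 5776 in WT. WT4, with the highest sum of WT, had the lowest *Dkk2* of all 10 mice (3.87 FPKM) and 8.24 FPKM of *Rspo3*. Per *Myh11*, a smooth muscle marker, *Dkk2* was 0.025 to 0.147 in HSD17B1TG and 0.00608 to 0.235 in WT and overlapped. Of 10 epithelial markers 9 were higher and none was called, with sums of 717 to 3390 in HSD17B1TG and 507 to 1694 in WT. Neutrophil markers summed to 5.14 to 15.6 and 0.951 to 4.01, so the groups did not overlap in this sum, with *Cxcr2* and *Retnlg* at or near 0. The groups overlapped for *S100a8*, which was too low for the test, and for *Csf3r* and *Mmp9*, which were not called. *Cd177*, too low for the test, had 0.151 to 2.94 FPKM in HSD17B1TG and 0 to 0.0873 in WT, and *S100a9* was above all WT mice in 4 of 5 HSD17B1TG mice and was not called (3.20, adjusted p = 0.0967). Mesothelial markers, 6 of 6 higher and none called, summed to 24.4 to 76.4 and 2.68 to 36.6. Of 8 leucocyte markers *Laptm5* rose (1.28, adjusted p = 0.0312 in edgeR) and the other 7 were lower and not called, with sums of 76.1 to 102 and 59.7 to 128, and the 8 endothelial markers (none called) summed to 37.0 to 137 and 64.1 to 144. The 5 oviduct markers (none called) summed to 21.5 to 86.7 in HSD17B1TG and 47.3 to 109 in WT, mostly from *Tppp3*. The ciliary genes *Foxj1* (0 to 0.0735 and 0.129 to 1.02 FPKM, no overlap) and *Dynlrb2* (0 in all HSD17B1TG and 3 of 5 WT mice) were too low for the test, and *Ovgp1* (0.42 to 2.13 and 0.39 to 4.51) and *Ccdc78* (0.174 to 0.644 and 0.271 to 0.976) overlapped. The part of these markers in the results was not tested.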

How the data were processed

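Uterine RNA of 10 mice was sequenced by the authors as paired-end reads of 150 bp on a NovaSeq6000 and mapped with HISAT2 2.0.5 to the Ensembl 94 annotation (GRCm38). Neither the counting program nor a strand setting is given in the sources used here, so reads of genes that overlap another annotated gene, such as *Wnt5a*, *Wnt6*, *Sfrp2* and *Lef1*, could have been assigned to either. The authors deposited raw counts per gene and mouse and FPKM, both used here. Beside these, 10 columns of counts scaled by size factor, 2 columns of group means and the columns of the authors' own DESeq2 comparison (fold changes and p-values) were not used, nor were the tables of enriched terms.

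Totals were 14817228 to 23271988 counts per mouse, so 3 counts correspond to 0.202 CPM in the shallowest library. Groups follow the genotype in the labels, and mice were numbered in the order of the deposited samples. Nothing in the labels is marked as a litter, batch or date, and the numbers they hold are not explained. Counts were tested with the quasi-likelihood test of edgeR 4.0.16 (R 4.3.3) after filterByExpr and TMM scaling, and p-values were adjusted by Benjamini-Hochberg across 16993 genes. The study's methods gave the thresholds. Levels between genes were compared in the deposited FPKM, and log2 CPM had a prior count of 2. Alternatives were DESeq2 1.42.0, limma 3.58.1 with voom or on log2 FPKM, other scalings and filters, and each mouse left out. Fits without WT3 and WT4 or without TG1 and TG4 were added after the data were seen.

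The families that make up the members, the pathway list, the markers and the naming rule were chosen with earlier results of these data known, although the rule for members uses names only. Values per mouse are given for members with an adjusted p under 0.05, with no overlap between groups, with the highest median FPKM of their role, or that are ligands with a median FPKM over 1. Of the pathway list the genes with an adjusted p under 0.05 are named, and other genes were named after their values were seen.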

Additional observations from a re-analysis of the deposited data

Results flagged for a closer look

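In each group of 5 mice, the gap of the highest or lowest value to its neighbour was divided by the range, on log2 CPM, and compared with the critical value of 0.71. Of 72 groups over the 36 tested members, 2 passed, and chance passes about 1 in 20. *Wnt7b* in WT had a ratio of 0.839, because WT3 had 0.0253 FPKM while the other WT mice had 2.29 to 4.93. *Tcf7* in HSD17B1TG had a ratio of 0.847, because TG1 had 3.82 FPKM while the other HSD17B1TG mice had 8.84 to 10.5.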

How the results depend on the processing

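The number of called members, from 5 mice per group, depended on single libraries and on the test. Members that rose were 0 to 1 and members that fell 0 to 9 over the fits that left out a mouse, and among the other pathway genes 0 to 1 rose and 0 to 8 fell. DESeq2 gave 8 members that fell (1 rose) and limma voom 7 (*Lgr4* rose), against 5 in edgeR, and over all genes they called 921 up and 657 down and 1083 up and 665 down. On log2(FPKM + 1) limma gave 2 that fell and on log2(FPKM + 0.1) 3, and no member rose in either, nor with upper quartile or library size scaling. Over all genes the calls were 416 up and 228 down on log2(FPKM + 1) and 493 up and 320 down on log2(FPKM + 0.1). With upper quartile scaling they were 312 up and 404 down. Of the other pathway genes, 1 rose and 8 fell in DESeq2, 2 rose and 7 fell in voom, 2 fell on log2(FPKM + 1) and 2 on log2(FPKM + 0.1), in both *Adgra2* and *Reck*. Without both TG1 and TG4, 2 of them rose and 7 fell, and neither these nor the log2 FPKM calls include *Apcdd1*, *Znrf3*, *Cd44* or *Myc*. Over all genes, calls were 367 up and 354 down in edgeR, and 286 up and 494 down with library size scaling. *Dkk2* had an adjusted p of 0.132 in voom, 0.101 without both WT3 and WT4 and 0.0766 without both TG1 and TG4.

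Of 752 log2 fold changes of members under these alternatives, 647 kept direction and side of the threshold, 54 lost and 25 gained an adjusted p under 0.05, and 26, from 8 members none of which was called, changed sign. Without both TG1 and TG4 these were *Rspo3* -0.34, *Frzb* -0.42, *Lgr6* -0.0433, *Rspo1* -0.48 and *Lrp6* -0.22, and without both WT3 and WT4 *Rspo1* -0.0236 and *Wnt7a* -0.38. With library size scaling they were *Rspo1* -0.0075, *Lrp6* -0.10 and *Wnt7a* -0.0413, with upper quartile *Lrp6* -0.0087, and with voom *Lrp6* -0.0096 and *Wnt2b* 0.0191. Over the fits that left out a mouse, values ranged from -0.0757 to 0.55 for *Frzb*, from -0.0054 to 0.70 for *Lrp5*, from -0.23 to 1.69 for *Lgr6*, from -0.14 to 0.35 for *Rspo1*, from -0.10 to 0.16 for *Lrp6*, from -0.22 to 1.00 for *Wnt7a* and from -0.50 to 0.15 for *Wnt2b*. The cause was not tested.

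No paired analysis was possible because the labels give no replicate number as such, the groups share only 1 of the unexplained numbers that end them, and the numbers used here only name the mice. At 3 counts per library, *Dkk1*, *Wnt3*, *Wnt3a*, *Wnt8b*, *Wnt10a* and *Rspo4* cannot be told from absent in nearly all mice.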

Other observations

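Relative to the FPKM of stromal markers, more members were above every WT mouse in all 5 HSD17B1TG mice than by FPKM alone, but their share was below that of all genes tested. Per *Pdgfra* they were 13 of 36 (36.1%) against 63.9% of all genes, per *Hand2* 13 (36.1%) against 59.5%, and per *Col1a1* 6 (16.7%) against 42.3%. All 3 markers were lower in all 5 HSD17B1TG mice than in any WT mouse, *Col1a1* with 112 to 491 FPKM against 671 to 741 (log2 fold change -1.18, adjusted p = 0.0671 in edgeR, not called), which raises any ratio to them. Relative to *Epcam* 3 members (*Wnt5a*, *Lef1* and *Wnt16*, 8.33%) were below WT in all 5 mice against 1.76% of all genes, and relative to *Myh11* the groups overlapped for all 36. These ratios were chosen after the values were seen and were not tested.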
